A study of Mus musculus with 13 samples.

Results

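The genes examined here are 8 markers of glial and vascular cells, Mbp, Mog, Aqp4, Gja1, Cx3cr1, C1qa, Trem2 and Cldn5, read in cells that were picked by hand as neurons of the mouse claustrum. They were chosen by name as markers of non-neuronal cells and 7 of the 8, among 23427 genes listed in the study's count tables, have a row in at least 1 table and are described below. Cldn5 was not analysed here. Mbp, Gja1, Cx3cr1 and Trem2 have a row in both tables, whereas Mog, Aqp4 and C1qa have a row for the projection mice alone, so that values of these 3 genes are given over 856 cells instead of 1112.

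The study asked how the excitatory cells of the claustrum divide into types and where those types project. Single cells were drawn into capillaries from microdissected claustrum of 4 mature male C57BL/6 mice and sequenced in 13 plates. In 1 mouse, called the blindly sampled mouse here (3 plates, 256 cells), rAAV2-retro-CAG-GFP injected into the anterior cingulate cortex guided the dissection, while cells were picked without regard to GFP. In projection mice 1, 2 and 3 (10 plates with 258, 256 and 342 cells), fluorescent retrobeads, a tracer that travels from the injected target back to the neurons that project there, were placed in the lateral entorhinal cortex (LEC, green) and the retrosplenial cortex (RSC, red), and 306 LEC-labelled, 292 RSC-labelled and 258 unlabelled cells were harvested. Each mouse is 1 animal, tests between classes, labels and kept and excluded cells treat mice as replicates, and in each projection mouse the labels fill separate plates apart from plate 12 of projection mouse 3, which holds 48 LEC-labelled and 35 RSC-labelled cells.

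Oligodendrocytes wrap axons in myelin, of which myelin basic protein (Mbp) and myelin oligodendrocyte glycoprotein (Mog) are parts. Astrocytes carry the water channel aquaporin 4 (Aqp4) and the gap junction protein connexin 43 (Gja1), microglia carry the fractalkine receptor Cx3cr1, the complement subunit C1qa and the lipid-sensing receptor Trem2, and endothelial cells seal capillaries with claudin 5 (Cldn5). A glial cell transcribes many genes of its own type together, so material from such a cell brings several of them at once, whereas a neuron that transcribes 1 of them by itself need not carry the others. The Mbp gene also encodes longer golli transcripts, known from neurons, and counts per gene do not separate these from the transcripts of myelin.

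Cells were deep enough to see rare transcripts in the projection mice and less so in the blindly sampled mouse. Median totals were 25418 counts per cell for the blindly sampled mouse and 140103, 126500 and 151130 for projection mice 1, 2 and 3, and single cells ranged from 57 to 495406. Because detection rises with depth, the main shares of cells are given as measured and also after every cell was thinned at random to 20000 counts, which left out 176 shallower cells, 81 of them from the blindly sampled mouse. A count is a sequenced read and several may come from 1 molecule, so intervals, which are 95% exact Clopper-Pearson intervals, cover counting error only. Intervals over cells, also where cells of several mice are pooled, describe those cells and are no test over mice. The neuronal gene Snap25 was detected in 1085 of the 1112 cells and the glutamatergic gene Slc17a7 in 1017. The 1011 cells with both are called kept cells and the other 101 excluded cells. The study filtered on the same genes. The interneuron genes Gad1 and Gad2 were detected in 16 and 18 of the 856 cells of the projection mice.

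The 7 genes fell into a widely detected pair and 5 rare genes. Mbp was detected in 403 cells, 36.2% of the harvest (33.4 to 39.1%), and Trem2 in 181 cells, 16.3% (14.1 to 18.6%). Mog was detected in 18 cells (2.10%), Aqp4 in 11 (1.29%), Gja1 in 15 (1.35%), Cx3cr1 in 7 (0.630%) and C1qa in 2 (0.234%). In thinned cells the shares were 29.0% for Mbp, 12% for Trem2, 1.05% for Mog, 0.788% for Aqp4 and 0.214% for both Gja1 and Cx3cr1, and no thinned cell had C1qa. At least 1 of the 7 genes was present in 536 cells, and only 92 cells had more than 1 of them, namely 84 with 2 genes, 7 with 3 and 1 with 4.

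Of the myelin genes, Mog, which sits on the outer face of the sheath, was concentrated in very few cells. Its 18 cells held 1507 counts, of which the 5 highest cells held 94.1%, up to 637 counts in 1 cell of plate 10. Mbp was both abundant in those cells and spread thinly through others. Its highest cell, the same cell of plate 10, held 1335 counts, 174 cells held 10 or more and 80 cells held a single count. By mouse, Mbp was detected in 63 of 256 cells of the blindly sampled mouse and in 116 of 258, 99 of 256 and 125 of 342 cells of projection mice 1, 2 and 3, which after thinning was 23.4%, 35.2%, 29.0% and 27.7%.

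To see whether genes of 1 glial type came together in a cell, each cell was scored for the number of genes with a count in lists of 12 oligodendrocyte, 6 oligodendrocyte precursor, 12 astrocyte, 13 microglia, 10 endothelial and 7 mural genes. For the oligodendrocyte list the cells parted cleanly. No count of any of the 12 genes was found in 466 cells, 396 cells had 1 gene, 159 had 2, 59 had 3, 19 had 4 and 5 had 5, then no cell lay in between, and 8 cells had 10 to 12 of the 12 genes. Cells with a count of 6 or more oligodendrocyte genes, 3 or more precursor, 6 or more astrocyte, 7 or more microglia, 5 or more endothelial or 4 or more mural genes, 12 cells in all, are called glia-rich below. Listed genes without a row for the blindly sampled mouse counted as absent in its cells, while the required numbers stayed the same.

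The 8 oligodendrocyte-rich cells held most of the myelin transcripts of the series. They carried 99.2% of all counts of Mog and 98.5% of those of Mag, an adhesion protein of the myelin sheath, but 44.2% of those of Mbp. In the highest of them, a Synpr-lower, RSC-labelled cell of plate 10, the 12 genes made up 4.68% of 280653 counts, with 1335 counts of Mbp, 706 of Mag and 637 of Mog. The lowest, an unlabelled cell of plate 13, had 10 of the genes in 252 of its 32826 counts, 0.768%, with 28 counts of Mbp and 1 of Mog. All 8 came from projection mice, 5 from projection mouse 1, and none from the blindly sampled mouse. That mouse had less chance to show one, since Mog, Mag, Ermn and Aspa have no row for it and its cells were shallower.

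Most of these cells carried neuronal transcripts as well. Of the 8, 7 were kept cells, with 88 to 1980 counts of Snap25 and 15 to 58 counts of Slc17a7. Their Snap25 level ran from 1586 to 5790 counts per 1000000 (CPM), against a median of 4146 CPM in kept cells that were not glia-rich, and 3 of them had high Synpr, with 533, 599 and 1039 counts. The eighth cell, on plate 10, had no count of Snap25 or Slc17a7 and was 8.37% oligodendrocyte list by counts, the highest share of the 8. It was also the only glia-rich cell among the 27 cells without a count of Snap25, whose median total was 1640 counts and of which 26 had fewer than 10000.

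The other glial types gave fewer such cells. The astrocyte list had 1 rich cell, an unlabelled cell of plate 13 with 11 of the 12 genes, 44 counts of Aqp4, 5 of Gja1 and 102 of the glutamate transporter Slc1a3 in 18909 counts, and with 1 count of Snap25 and none of Slc17a7. The microglia list had 2, both kept and Synpr-high: a cell of plate 10 with 12 of the 13 genes, including 31 counts of Cx3cr1, 3 of C1qa, 1 of Trem2 and 50 of the purinergic receptor P2ry12, and a cell of plate 11 with 8 genes, including 22 counts of Trem2 and none of Cx3cr1 or C1qa. The precursor list had 2, of which the one on plate 9 was also oligodendrocyte-rich. No cell reached the required number of endothelial or of mural genes, and the most found in 1 cell was 3 and 2 genes. For 0 of the 856 cells of the projection mice this allows a share of up to 0.3505%. Of the 10 endothelial genes 7 were measured, without Cldn5, Cdh5 and Tek, and of the 7 mural genes 6 were, without Kcnj8. In the blindly sampled mouse the endothelial genes Slco1a4 and Emcn and the mural genes Vtn and Abcc9 also have no row. A rich cell of that mouse would have needed every measured gene of either list. Only Pdgfra and Cspg4 of the precursor list have a row there, so none of its cells could be precursor-rich.

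**Figure D1:**
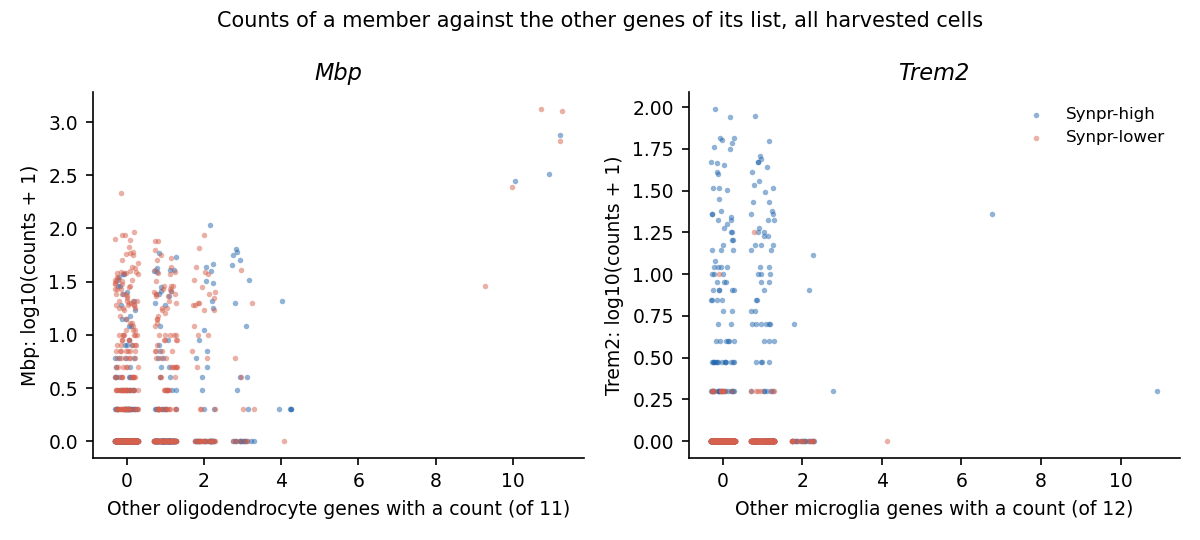
Counts of Mbp (left) and Trem2 (right) in each of the 1112 cells, as log10(counts + 1), against the number of other genes of the same marker list with a count in that cell (11 other oligodendrocyte genes, 12 other microglia genes). Points are cells, spread sideways for display, in blue for Synpr-high and red for Synpr-lower cells. Genes without a row for the blindly sampled mouse count as absent in its cells. The 8 oligodendrocyte-rich cells stand apart at the right, while most cells with Mbp or Trem2 lie at 0 to 2 other genes.

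Over the whole list, 191 of the 403 cells with Mbp had a count of another oligodendrocyte gene (47.4%, 42.4 to 52.4%), against 243 of 709 cells without Mbp (34.3%, 30.8 to 37.9%), and after thinning the shares were 29.5% (24.2 to 35.3%) and 27.4% (24.0 to 30.9%). Most cells with Mbp held none of the rarer myelin genes. Among the 403 cells with Mbp, 56 (13.9%, 10.7 to 17.7%) had a count of any of the 8 oligodendrocyte genes that were each found in at most 100 cells, against 40 of 709 cells without Mbp (5.64%, 4.06 to 7.60%), and 8 of the 56 were the oligodendrocyte-rich cells. After thinning the shares were 4.80% (2.58 to 8.06%) of 271 cells and 1.80% (0.936 to 3.13%) of 665, and their intervals overlap. Of those 8 genes, Mog, Mag, Ermn and Aspa have no row for the blindly sampled mouse, so its cells, with or without Mbp, could show fewer of them. Of the 124 cells with 20 or more counts of Mbp, 97 had none of those 8 genes and 54 had none of the 11 other genes of the list, and Mbp reached 214 counts in a cell that was not glia-rich. Mog behaved otherwise, since 15 of its 18 cells also had Mbp (83.3%, 58.6 to 96.4%), against 38.8% of cells without Mog. The reverse share was low, with Mog in 15 of 340 cells with Mbp (4.41%). Mbp and Trem2, of different cell types, came together in 63 cells, 34.8% of the cells with Trem2, against 36.5% of the cells without it, a difference within the intervals. These shares are as measured and pool cells of all Synpr levels, over which both genes differ in opposite directions, as given below. They therefore do not decide whether the 2 genes were associated within cells of like Synpr level.

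Of the 11 other oligodendrocyte genes, Cnp, a phosphodiesterase of myelin, and Mobp, a basic protein of myelin, were the most widely detected, in 244 and 160 cells. The oligodendrocyte-rich cells held 66.2% of the counts of Cnp and 65.8% of those of Mobp. Outside the oligodendrocyte-rich cells the highest counts were 52 for Cnp and 69 for Mobp, against 2 for Mog and 3 for Mag.

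The plates with an oligodendrocyte-rich cell differed in their remaining cells. On plate 10, where the 3 rich cells held 852 counts of Mag, Mag was detected in 14 of the 84 other cells (16.7%), in 13 of them at 1 or 2 counts. It was in 2 of 83 other cells of plate 9 and in 1 of 83 of plate 11, and on the other 7 projection plates, 3 of which hold a rich cell, in 0 of 598. Cldn11, a claudin of the myelin sheath, followed the same plates, with 9 of 84 cells on plate 10, 6 of 83 on plate 9, 2 of 83 on plate 11 and 0 of 598 on the others. Mal, a proteolipid of myelin, was in 8 of 84, 5 of 83 and 8 of 83 cells on plates 10, 9 and 11 and in 3 of 598 on the others. Mog had 6 of its 10 cells outside the rich ones on plate 10, all at 1 or 2 counts. Plates share well barcodes, as 1087 of the 1112 cells carry a barcode that is also used on another plate. How the low counts reached these cells was not tested.

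**Figure D2:**
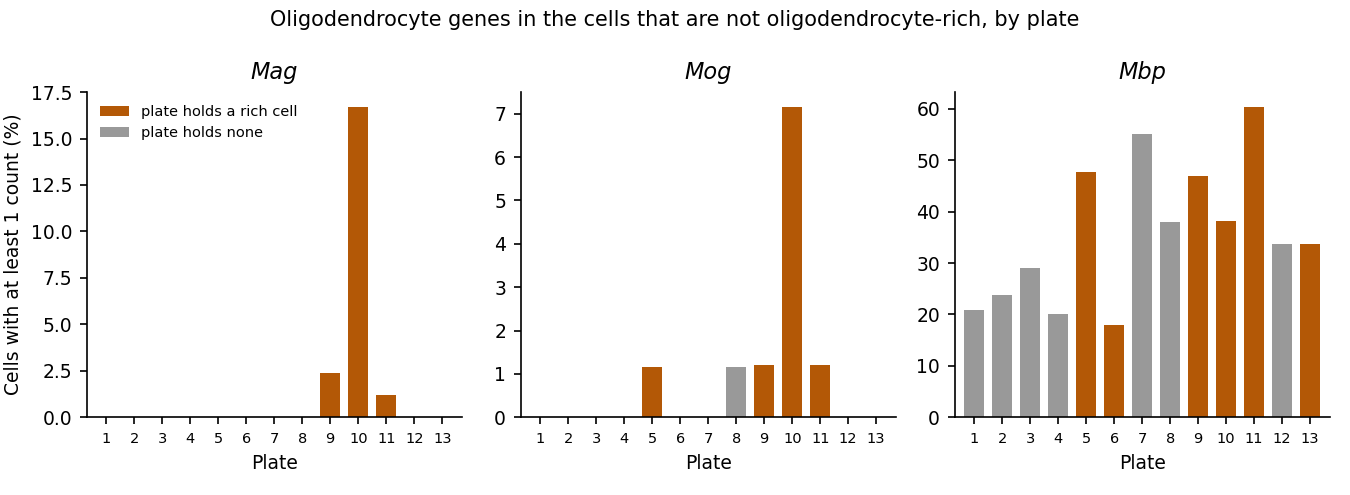
Share of cells with at least 1 count of Mag, Mog and Mbp in each plate, over the cells that are not oligodendrocyte-rich, with a separate scale for each gene. Bars are plates, orange where the plate holds an oligodendrocyte-rich cell and grey where it holds none, and Mag and Mog have no row for plates 1 to 3. Mag and Mog are highest on plate 10 at 16.7% and 7.14%, whereas Mbp is high on plate 7, which has no rich cell, as well as on plate 11.

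Mbp did not follow the same plates. In the cells that were not oligodendrocyte-rich it was found in 55.2% on plate 7, which holds no rich cell and where Mag was in 0 of 87 cells, and in 17.9% on plate 6, which holds one. Of its cells outside the rich ones on the 6 plates with a rich cell, 59 of 206 had 1 or 2 counts, a lower share than for Mag (28.6% against 94.1% of 17 cells). Without the glia-rich cells the level of Mbp, summed over cells, was 30.9 CPM in the blindly sampled mouse and 51.1, 43.7 and 47.3 CPM in projection mice 1, 2 and 3, whereas with them it was 134.0 CPM in projection mouse 1 and 87.5 CPM in projection mouse 2.

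The study divided its cells by clustering, and a cluster that it takes as a claustrum type was enriched for Synpr, the gene of synaptoporin, a membrane protein of synaptic vesicles. The split used here is a threshold on Synpr alone and not the study's clusters. Its lower class joins the study's other claustrum type and cortical cells without dividing them, and both classes include excluded cells. In the projection mice Gad1 was detected in 12 of 341 cells of the class with higher Synpr and in 4 of 515 of the lower class. Gad2 was detected in 12 and 6 of these cells. Cells with at least 200 CPM of Synpr, called Synpr-high (461 cells), were compared with the others, called Synpr-lower (651 cells), and Synpr itself is no result here. The question was whether the glial and vascular transcripts were spread evenly over the classes. Trem2 was far higher in Synpr-high cells in every mouse, and Mbp was found in more of the Synpr-lower cells in every mouse after thinning, and in 3 of 4 mice as measured.

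Trem2, the microglial receptor, was detected in 38 of 120 Synpr-high cells of the blindly sampled mouse and in 37 of 92, 34 of 96 and 52 of 153 of those of projection mice 1, 2 and 3. In Synpr-lower cells it was detected in 1 of 136, 7 of 166, 3 of 160 and 9 of 189 cells. The highest share in any Synpr-lower group, 4.76%, was below the lowest in any Synpr-high group, 31.7%, so the classes did not overlap. The summed level was 37.5, 41.7, 33.6 and 40.3 CPM in the Synpr-high cells of the 4 mice and 0.247, 1.22, 0.143 and 0.627 CPM in their Synpr-lower cells. The log2 fold change was 6.02 (SE 0.51), with an adjusted p of 8.19e-05 by edgeR's quasi-likelihood test on counts summed per mouse and class with Benjamini-Hochberg adjustment, and adjusted p from 3.42e-44 to 0.00457 over 11 alternatives. In that test 8.52% of the 13687 genes tested were called, and of the 3 members that passed the filter on low counts, Mbp, Mog and Trem2, 1 was called.

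The difference in Trem2 was present at equal depth. In cells thinned to 20000 counts its share was 25.5 ± 3.3% (SD, n = 4 mice) of Synpr-high cells and 1.01 ± 0.42% of Synpr-lower cells, higher in 4 of 4 mice, and an exact two-sided paired permutation test gave p = 1 in 8, the smallest that 4 mice allow. It was higher in the Synpr-high cells within each of the 13 plates, as measured and after thinning. On plate 7, which has only 6 Synpr-high cells, that is 1 of 6 against 1 of 81 cells, and on plate 12 it is 11 of 40 against 5 of 43.

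Within the Synpr-high class, Trem2 was at its highest shares in cells with at least 1000 CPM of Synpr. In thinned cells it was found in 0.865% of cells without any count of Synpr, in 1.14% of cells with Synpr under 200 CPM, in 0 of 13 cells at 200 to 500 CPM, in 17.9% (7.54 to 33.5%) at 500 to 1000 CPM, in 28.7% (22.9 to 35.1%) at 1000 to 2000 CPM and in 26.1% (19.0 to 34.2%) at 2000 CPM or more. The intervals of the highest 3 groups overlap. Its level per cell was moderate, with a median of 8 counts among the 161 Synpr-high cells that had it and at most 97, and 20 Synpr-lower cells had 44 counts between them.

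**Figure D3:**
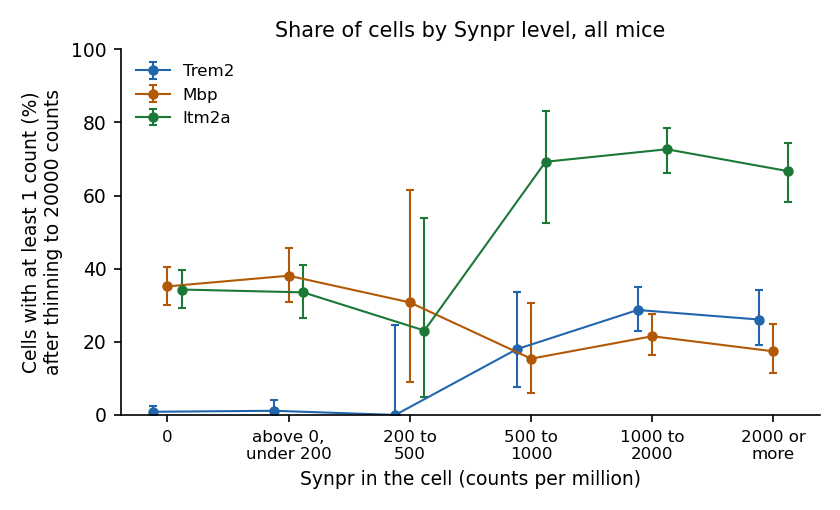
Share of thinned cells with at least 1 count of Trem2 (blue), Mbp (orange) and Itm2a (green) in 6 groups of cells by Synpr level in CPM, over all 4 mice, with 95% exact Clopper-Pearson intervals as bars. Trem2 and Itm2a are at their higher shares from 500 CPM of Synpr upward, and Mbp at its higher shares below 200 CPM. The group from 200 to 500 CPM holds 13 cells.

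Over the whole list, 73 of 181 cells with Trem2 had another microglia gene (40.3%, 33.1 to 47.9%), against 361 of 931 cells without it (38.8%, 35.6 to 42.0%). Of 181 cells with Trem2, 17 (9.39%, 5.57 to 14.6%) had a count of any of the 11 microglia genes found in at most 100 cells, against 64 of 931 cells without it (6.87%, 5.33 to 8.69%). Cx3cr1 was found in 2 cells with Trem2 and C1qa in 1. Of the 72 cells with 10 or more counts of Trem2, 71 were Synpr-high and 64 had none of those 11 genes. Among the 11, C1qa, C1qb, C1qc, P2ry12 and Fcrls have no row for the blindly sampled mouse, so its cells, with or without Trem2, could show fewer of them. The microglia-rich cells held 0.920% of the counts of Trem2, against 72.1% of those of Cx3cr1. No exon of Trem2 overlaps an exon of another gene in GENCODE M21 (GRCm38), which is a later assembly than the NCBIM37 named in the submitters' processing notes.

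**Figure D4:**
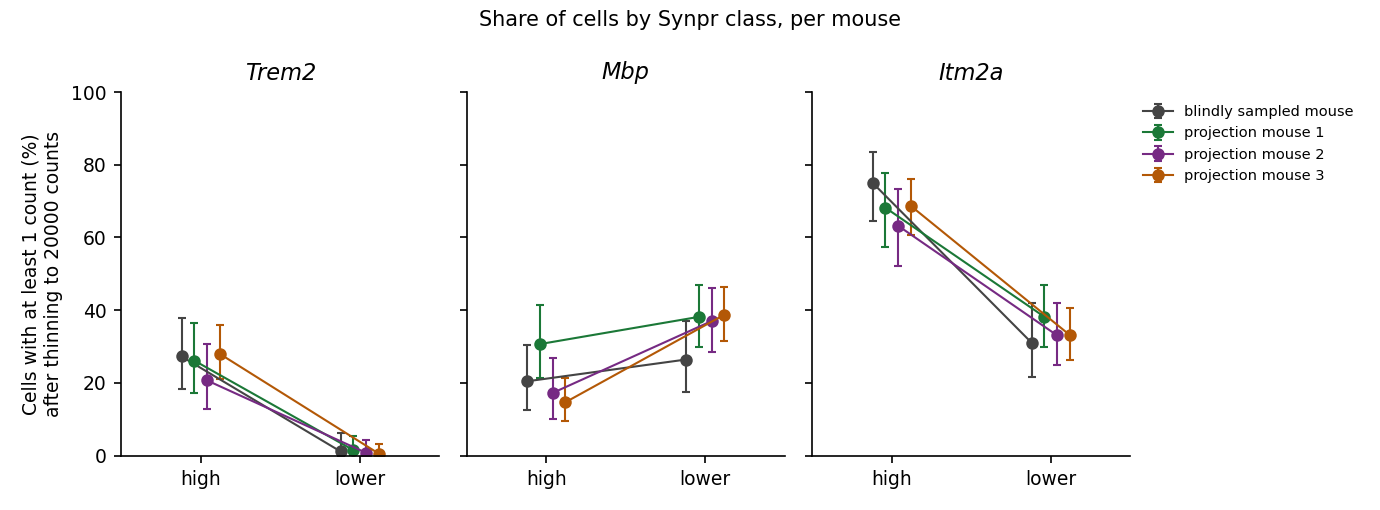
Share of cells with at least 1 count of Trem2, Mbp and Itm2a in the Synpr-high and Synpr-lower cells of each of the 4 mice, after thinning to 20000 counts. Points are mice joined by lines, and bars are 95% exact Clopper-Pearson intervals. Trem2 and Itm2a are higher in Synpr-high cells in all 4 mice, and Mbp is lower in all 4.

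Mbp went the other way by share of cells, with less certainty by level. It was detected in 25 of 120, 43 of 92, 31 of 96 and 32 of 153 Synpr-high cells of the blindly sampled mouse and projection mice 1, 2 and 3, and in 38 of 136, 73 of 166, 68 of 160 and 93 of 189 of their Synpr-lower cells. As measured, projection mouse 1 had a slightly higher share in its Synpr-high cells, 46.7% against 44.0%. After thinning the share was 20.8 ± 7.0% (SD, n = 4 mice) in Synpr-high and 35.1 ± 5.8% in Synpr-lower cells, lower in 4 of 4 mice, again with the smallest p that the exact permutation test allows.

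The summed level of Mbp was 20.9, 102.5, 24.6 and 29.5 CPM in the Synpr-high cells of the 4 mice and 39.7, 164.7, 126.2 and 75.2 CPM in their Synpr-lower cells. Projection mouse 1 stood above the others in the Synpr-high class, and its Synpr-high cells include an oligodendrocyte-rich cell with 754 counts of Mbp. The log2 fold change of -1.14 (SE 0.54) did not pass edgeR's quasi-likelihood test (adjusted p = 0.282). It passed with the mouse as a block, at -1.29 and an adjusted p of 0.0114, and without the glia-rich cells, at -1.04 and 0.0370, and over 11 alternatives the adjusted p ran to 0.671. Mog had a log2 fold change of -1.96 (SE 1.71, adjusted p = 0.635), and without the glia-rich cells it no longer passed the filter on low counts.

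Of the astrocyte genes, Aqp4 was found in 11 Synpr-lower cells out of 515 and in none of the 341 Synpr-high cells of the projection mice, which allows a share of up to 0.880%. With 113 counts in all, it did not pass the filter on low counts in the fit of 4 mice. Without the blindly sampled mouse, for which Aqp4 has no row, the log2 fold change was -8.21 (SE 1.33). The adjusted p of that fit was 0.0121 by edgeR's quasi-likelihood test. With all 4 mice and no filter on low counts, the log2 fold change of Aqp4 was -7.51 (SE 1.86, adjusted p = 0.04925). Aqp4 and Gja1 were found together in 1 cell, the astrocyte-rich one, which held 38.9% of the counts of Aqp4. The other 10 cells with Aqp4 had up to 21 counts, and 1 of the 11 cells had any of the 7 other astrocyte genes found in at most 100 cells. Gja1 was present as a single count in 13 of its 15 cells and was split 6 to 9 between Synpr-high and Synpr-lower cells. Cx3cr1 was split 3 to 4, and C1qa was found in 1 cell of each class.

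Of the 26 listed glial and vascular genes that were tested between the classes, 3 passed edgeR's quasi-likelihood test, where 8.52% of all genes were called. Trem2 and Itm2a were higher in Synpr-high cells, and S100b was lower. The median log2 fold change was -1.59 over 10 oligodendrocyte genes, -2.34 over 3 precursor genes, -0.66 over 6 astrocyte genes and -0.83 over 2 mural genes, with none of the oligodendrocyte, precursor or mural genes called, and 0.00 over all genes tested. It was 1.87 over the 3 microglia genes and 1.26 over the 2 endothelial genes.

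Itm2a, an integral membrane protein on the endothelial list, was common in these cells, in 636 of 1112, although no cell was rich in that list. Its summed level was 189.1, 157.3, 108.8 and 147.8 CPM in the Synpr-high cells of the 4 mice and 51.3, 63.6, 50.1 and 56.9 CPM in their Synpr-lower cells, with no overlap. The log2 fold change was 1.5 (SE 0.18, adjusted p = 0.000742 by edgeR's quasi-likelihood test), and it was past the threshold in 11 of 11 alternatives. The next endothelial gene, Esam, an adhesion molecule, was found in 42 cells. S100b, a calcium-binding protein of astrocytes, was at 7.23, 4.51, 9.32 and 5.83 CPM in Synpr-high and 39.5, 24.2, 13.6 and 15.0 CPM in Synpr-lower cells, a log2 fold change of -1.74 (SE 0.41, adjusted p = 0.0248). S100b lost its call when projection mouse 1 (adjusted p = 0.148) or projection mouse 3 (adjusted p = 0.0935) was left out.

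By retrobead label, the question was whether cells that project to the RSC and the LEC carried these transcripts alike. Trem2 was higher in RSC-labelled and Mbp was found in more of the LEC-labelled cells, in each of the 3 projection mice. The labels differ in Synpr class, since 55 of 87, 58 of 85 and 108 of 120 RSC-labelled cells of projection mice 1, 2 and 3 were Synpr-high against 18 of 84, 12 of 87 and 17 of 135 LEC-labelled cells, and label and plate cannot be told apart outside plate 12.

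Trem2 was detected in 24 of 87, 21 of 85 and 42 of 120 RSC-labelled cells, in 8 of 84, 6 of 87 and 7 of 135 LEC-labelled cells and in 12 of 87, 10 of 84 and 12 of 87 unlabelled cells of projection mice 1, 2 and 3. Its level was 37.8, 26.3 and 43.4 CPM in RSC-labelled, 11.9, 9.92 and 2.11 CPM in LEC-labelled and 12.2, 8.77 and 16.0 CPM in unlabelled cells. RSC-labelled sums lay above all others, while LEC-labelled and unlabelled sums overlapped. The log2 fold change of RSC-labelled against LEC-labelled cells was 2.21 (SE 0.52, adjusted p = 0.0412 by edgeR's quasi-likelihood test), where 3.98% of 14034 genes were called and 1 of the 4 members tested. With the mouse as a block the adjusted p was 0.0732, and it was 0.116 to 0.179 when any of projection mice 1, 2 and 3 was left out. In thinned cells the shares were 22.9 ± 5.5% and 3.14 ± 1.8% (SD, n = 3 mice), higher in 3 of 3 mice, with an exact permutation p of 0.25, the smallest possible. On plate 12 alone, Trem2 was in 11 of 35 RSC-labelled and 5 of 48 LEC-labelled cells.

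Within the Synpr-high class the labels were closer. Trem2 was detected in 23 of 55 RSC-labelled, 6 of 18 LEC-labelled and 8 of 19 unlabelled Synpr-high cells of projection mouse 1. The counts were 19 of 58, 5 of 12 and 10 of 26 in projection mouse 2, and 41 of 108, 2 of 17 and 9 of 28 in projection mouse 3. RSC-labelled cells had the higher share than LEC-labelled cells in projection mice 1 and 3 and the lower in projection mouse 2, the exact intervals of each pair overlap, and the difference within the class was not tested. In Synpr-lower cells Trem2 was at 0 to 8.33% for every label and mouse.

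Mbp was detected in 51 of 84, 42 of 87 and 66 of 135 LEC-labelled, 35 of 87, 17 of 85 and 26 of 120 RSC-labelled and 30 of 87, 40 of 84 and 33 of 87 unlabelled cells of projection mice 1, 2 and 3. After thinning the share was 42.1 ± 4.7% (SD, n = 3 mice) in LEC-labelled and 22.4 ± 9.5% in RSC-labelled cells, lower in RSC-labelled cells in 3 of 3 mice (exact permutation p of 0.25). The summed levels did not follow, at 120.7, 74.3 and 78.7 CPM in LEC-labelled and 222.0, 26.4 and 30.7 CPM in RSC-labelled cells, where projection mouse 1 goes against the other 2. Its RSC-labelled plate 10 holds 3 oligodendrocyte-rich cells with 1335, 660 and 327 counts of Mbp. Mbp had a log2 fold change of 0.07 (SE 0.75, adjusted p = 0.984) over all cells and -1.16 (adjusted p = 0.0809) without the glia-rich cells. On plate 12 alone, Mbp was in 18 of 48 LEC-labelled and 10 of 35 RSC-labelled cells, at 56.6 and 16.9 CPM.

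**Figure D5:**
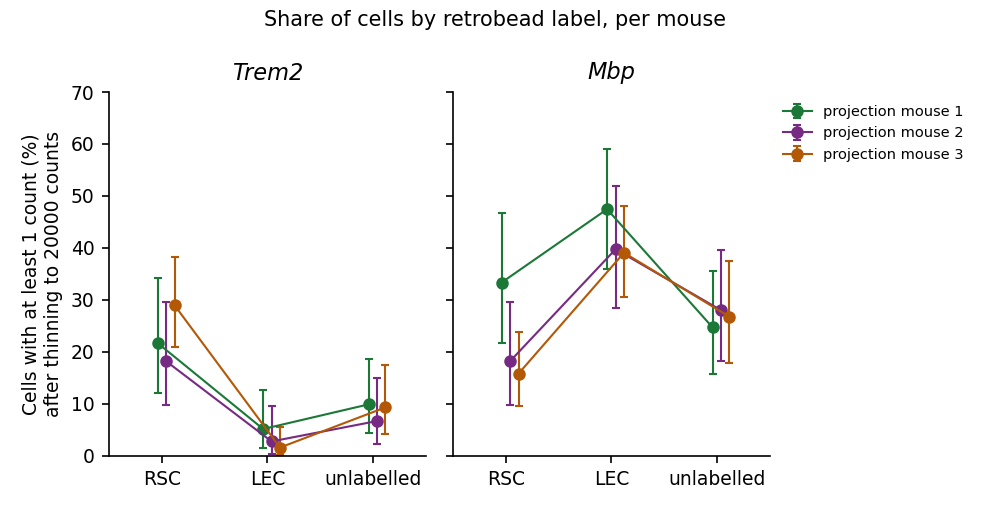
Share of cells with at least 1 count of Trem2 (left) and Mbp (right) among RSC-labelled, LEC-labelled and unlabelled cells of the 3 projection mice, after thinning to 20000 counts. Points are mice joined by lines and bars are 95% exact Clopper-Pearson intervals. Trem2 is highest in RSC-labelled cells and Mbp highest in LEC-labelled cells in all 3 mice.

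Mog and Aqp4 showed no call between labels, and Gja1, Cx3cr1 and C1qa did not pass the filter on low counts in that fit. Mog was found in 10 RSC-labelled, 4 LEC-labelled and 4 unlabelled cells, 9 of the first on plate 10, and its log2 fold change was 1.51 (SE 2.0, adjusted p = 0.812). Aqp4 was found in 6 LEC-labelled, 5 unlabelled and 0 of 292 RSC-labelled cells, which allows up to 1.03%, and edgeR's quasi-likelihood test gave an adjusted p of 0.217. Gja1 was found in 4, 5 and 5 cells and Cx3cr1 in 3, 2 and 2 cells with the RSC, the LEC and no label. Of the 31 listed glial and vascular genes tested between labels, 2 were called, Trem2 and the astrocytic glutamate transporter Slc1a2, where 3.98% of all genes were called. Slc1a2 was found in 664 cells and was at 200.4, 184.8 and 153.1 CPM in RSC-labelled against 98.9, 50.8 and 45.6 CPM in LEC-labelled cells (log2 fold change 1.5, SE 0.33, adjusted p = 0.0315). Slc1a2 lost its call when projection mouse 2 (adjusted p = 0.270) or projection mouse 3 (adjusted p = 0.201) was left out. The 7 astrocyte genes tested had a median log2 fold change of -0.97, and Aldoc, an aldolase of astrocytes, was at -1.31 (SE 0.35, adjusted p = 0.0698) and was called in 3 of 8 alternatives.

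Between labelled and unlabelled cells, a comparison of cells chosen by fluorescence with cells chosen without it, edgeR's quasi-likelihood test called 0% of 14034 genes, while 1152 had an unadjusted p under 0.05 and DESeq2 called 157. For Mbp the log2 fold change was 0.46 (SE 0.66, adjusted p = 0.945), for Trem2 0.47 (SE 0.45, adjusted p = 0.884), for Mog 0.60 (SE 1.75, adjusted p = 0.981) and for Aqp4 -4.96 (SE 1.54, adjusted p = 0.424). In simulated data with these sums the test recovered 68.8% of 4-fold changes and 37.9% of 2-fold changes.

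Cells without a count of Snap25 or of Slc17a7 are taken as non-neuronal or not glutamatergic by that filter, so the 101 excluded cells were compared with the kept cells. The excluded cells were shallow, with a median total of 4813 counts, and 79 of them had fewer than 10000. Of the 12 glia-rich cells 2 were excluded, and 10 were among the 1011 kept cells. At least 1 of the 7 members was found in 13 of 101 excluded cells (12.9%) and in 523 of 1011 kept cells (51.7%). Mbp was in 9 excluded cells, which held 2, 662, 70 and 0 counts in the blindly sampled mouse and projection mice 1, 2 and 3, and 660 of the 662 were in the oligodendrocyte-rich cell of plate 10. Trem2 was in 5.

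edgeR's quasi-likelihood test called 0% of 10885 genes between excluded and kept cells, with 1584 at an unadjusted p under 0.05 and 1065 called by DESeq2. Mbp had a log2 fold change of 3.82 (SE 1.5, adjusted p = 0.258), and it was 0.23 (adjusted p = 0.944) without the glia-rich cells. That of Trem2 was -0.90 (SE 1.05, adjusted p = 0.767). In simulated data the test recovered 0% of 4-fold changes in this comparison, so that a difference of that size was not detectable here.

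The genes whose levels went most like each member over the 856 cells of the projection mice were found by Pearson's r of log2(CPM + 1), among 15283 genes in at least 10 cells, as a description. They differed in kind. Mog was closest to Ermn (r = 0.902), Apod (0.887) and Mag (0.881), of which Ermn and Mag are myelin genes. Mbp was closest to Col6a1 (0.294), St6galnac5 (0.285) and Prkca (0.271), none of them on the oligodendrocyte list. Trem2 was closest to Gfra1 (0.436), Synpr (0.429) and B3gat2 (0.419), and with Synpr Mbp had an r of -0.156. Aqp4 was closest to Phkg1 (0.362), Tlcd1 (0.348) and Mgst1 (0.331), and Gja1 to Mgst1 (0.353), Gm8317 (0.339) and the astrocyte gene Slc1a3 (0.335). Those for Mog, Aqp4 and Gja1 rest on 18, 11 and 14 cells, and all of these points share libraries and depth.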

How the data were processed

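Hand-picked single cells of 4 mice were sequenced by the authors in 13 plates, and the deposited tables hold raw counts per gene and cell without normalization (16786 genes for the blindly sampled mouse, 23216 for the projection mice). The submitters' processing notes name the build NCBIM37 and Seurat, and the study's methods name STAR. Cells were mapped to plates by their names. In the projection mice they were mapped to mice by the animal that the submitters' cell annotation gives for each cell. Cells of the plates titled as without projection were taken as 1 mouse, following the study's methods. Rows of spike-in RNA were left out. A gene without a row in 1 table was set to 0 in joint fits and in the scoring of marker lists, although both tables also hold rows at 0 throughout (726 and 644). The tables hold cells before the study's filter, so that filter was rebuilt here, and a kept cell is one with any count of Snap25 and any of Slc17a7.

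Counts were summed per mouse and class (at least 5 cells per sum) and tested with edgeR 4.0.16 (filterByExpr, TMM, glmQLFit, glmQLFTest; R 4.3.3) over all genes, adjusted by Benjamini-Hochberg and called under 0.05. Fits had no block, and alternatives were DESeq2 1.42.0, no filter on low counts, the mouse as a block, leaving out each mouse, the glia-rich or the excluded cells, and other Synpr thresholds (100 and 500 CPM). Sums of 1 mouse come from the same animal and therefore pair, and their deviations from the group means correlated by 0.148 to 0.53 between Synpr classes and by -0.0461 to 0.0923 between labels. CPM is per 1000000 counts of the summed cells. Shares of cells were computed after thinning each cell to 20000 counts (numpy 2.4.6, fixed seed) and compared over mice by exact permutation (scipy 1.17.1). The depth, 57 to 495406 counts per cell, limits the detection of rare genes in the shallow cells, and a count of 0 in n cells allows a share of 3 in n. On simulated data the edgeR step recovered 65.3% of 4-fold and 18.2% of 2-fold changes between Synpr classes over 13687 genes.

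The genes, marker lists and tests were chosen with earlier results of these data known. Besides the 8 genes, the text names each list's 2 most widely detected other genes, listed genes that passed a test, the genes that show how a glia-rich cell was made up, and the 3 genes closest to each member by correlation. Mag, Cldn11 and Mal were chosen for the account of the plates after their values were seen. 1 gene of the oligodendrocyte list is counted there and its own values are not reported here.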

Additional observations from a re-analysis of the deposited data

Results flagged for a closer look

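In 9 of 22 groups of samples the highest value stood far from the others by Dixon's criterion, which by chance happens in about 1 of 20 groups, and the groups share cells, so they are not independent. The level of Mbp in Synpr-high cells was 102.5 CPM in projection mouse 1 against 29.5 CPM in the next mouse, and that mouse's Synpr-high cells include an oligodendrocyte-rich cell with 754 counts of Mbp and another with 327. Among the 10 projection plates, plate 10, with 3 oligodendrocyte-rich cells, was highest for the level of Mbp (222.0 CPM, next 129.0 CPM), for the level of Mog (61.25 CPM, next 24.29 CPM) and for the share of cells with Mog (10.34%, next 2.381%). Aqp4 was at 5.76 CPM on plate 13, which holds the astrocyte-rich cell, against 1.531 CPM on the next plate.

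Cx3cr1 was at 1.684 CPM in the Synpr-high cells of projection mouse 1 (next 0.1799 CPM) and at 2.33 CPM on plate 10 (next 0.3157 CPM), and 31 of its 43 counts lie in the microglia-rich cell of that plate. The share of cells with Cx3cr1 was highest on plate 7, at 2.299% (next 1.19%), which is 2 of 87 cells. C1qa was at 0.6507 CPM on plate 5 (next 0.2255 CPM), from 8 counts in a single cell. No such value was found for Trem2.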

How the results depend on the processing

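Between Synpr classes Trem2 and Itm2a kept their direction and their call in all 11 alternatives, and the calls over all genes were 1797 with DESeq2, 2014 with the mouse as a replicate block and 526 to 1536 when 1 mouse was left out, against 1166. Between RSC-labelled and LEC-labelled cells there were 1152 with DESeq2 and 59 to 361 without 1 mouse, against 558. Between labelled and unlabelled cells there were 157 with DESeq2, 31 without the filter on low counts, 3 with the block, 8 without the glia-rich cells and 0 to 2 without 1 mouse, against 0. Between excluded and kept cells there were 1065 with DESeq2, 180 without the filter and 93 with the block, against 0, and leaving out a mouse gave 0. The log2 fold change of Mbp between RSC-labelled and LEC-labelled cells turned from 0.07 to -0.32 with the block, -1.38 without projection mouse 1, -1.16 without the glia-rich cells and -0.20 in kept cells, and it was -1.38 to 0.39 when 1 mouse was left out. When 1 mouse was left out, that of Mog was -2.31 to 2.21, and between labelled and unlabelled cells Mbp was at -0.88 to 1.64 and Mog at -2.67 to 7.31, the lowest each without projection mouse 1. The block changed the calls of Mbp between Synpr classes and of Trem2 between labels, as given above, and no other call of the genes among the 8 that were tested with it (Mbp, Mog, Trem2 and, between labels, Aqp4). The difference in the share of cells with Trem2 between Synpr classes, 24.5 points, was 32.4 in unthinned cells, 16.4 in cells thinned to 10000 counts and 17.7 with at least 2 counts required. Between labels the difference for Mbp was -25.3 points unthinned against -19.6, and for Trem2 11.4 with at least 2 counts against 19.8. After thinning, cells with Trem2 that had Cx3cr1, cells with Cx3cr1 that had Trem2 and cells with Aqp4 that had Gja1 were all at 0%, the last also in kept cells. The causes were not tested. Limits are the 4 mice, the plates that carry the labels, the shallow blindly sampled mouse and the few cells behind Mog, Aqp4, Gja1, Cx3cr1 and C1qa.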
